A study of Mus musculus with 12 samples.

Results

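The genes described here are 10 mouse dual-specificity phosphatases that act on mitogen-activated protein kinases (MAP kinases): Dusp1, Dusp2, Dusp3, Dusp4, Dusp5, Dusp6, Dusp7, Dusp10, Dusp16 and Dusp22. They were taken by name from the deposited table of 55891 Ensembl gene identifiers, and each of the 10 symbols matched 1 identifier. All 10 passed the filter on low counts. RNA was sequenced from macrophages, grown out of bone marrow over 6 days in medium that held M-CSF at 10 ng/mL to drive progenitors towards macrophages. There were 6 groups of 2 libraries, 12 in all. Cells lacking Ptprz1, which encodes receptor-type protein tyrosine phosphatase zeta (KO), were given LPS+IFNγ (100 ng/mL bacterial lipopolysaccharide and 10 ng/mL interferon gamma for 24 h, called M1 in the labels), IL-4 (20 ng/mL interleukin-4 for 24 h, called M2) or no stimulus (control). Wild-type cells (WT) were given the same 3 treatments. Both genotypes carry the strain label B6.129-Ptprz1tm1Nmo, but the sample titles call the WT libraries B6. Whether strain background differed between the genotypes is therefore not settled, and such a difference could not be told apart from genotype. Neither age nor sex is labelled. Separate animals or cultures are not stated for the replicates, so p-values measure the spread between libraries, which may be technical.

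MAP kinases (ERK, JNK and p38) are switched on when a kinase upstream phosphorylates a threonine and a tyrosine in their activation loop. Dual-specificity phosphatases remove both phosphates and so switch the kinase off. Many of these phosphatase genes are themselves transcribed in response to MAP kinase signalling, which makes them feedback regulators, and in macrophages Dusp1 is known for limiting cytokine production after LPS. The genes differ in where the protein works and on which kinase. Dusp1, Dusp2, Dusp4 and Dusp5 encode inducible nuclear enzymes, Dusp6 and Dusp7 encode cytoplasmic enzymes that prefer ERK, and Dusp10 and Dusp16 encode enzymes that prefer JNK and p38. Dusp3 and Dusp22 encode small enzymes that lack the kinase-docking domain of the others.

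These genes share a catalytic loop, a histidine and a cysteine followed by 5 residues and an arginine, in which the cysteine attacks the phosphate. The loop alone does not define the family. Its coding bases are shown for all 10 genes because each of them holds it. The bases were read from the longest open reading frame of each gene in GENCODE M21 transcripts (GRCm38), run 5′ to 3′, and carry the cysteine codon and the arginine codon in capitals.
Dusp1: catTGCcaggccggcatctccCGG
Dusp2: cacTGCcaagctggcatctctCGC
Dusp3: catTGCcgcgagggctacagcCGC
Dusp4: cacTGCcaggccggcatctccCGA
Dusp5: cacTGCgaagctggggtttccCGG
Dusp6: catTGCttggcaggtatcagcCGC
Dusp7: cacTGCctagcaggcatcagcCGT
Dusp10: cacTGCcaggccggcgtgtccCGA
Dusp16: cacTGCttagctgggatctctCGC
Dusp22: catTGCctggctggggtctccAGG
Each reading frame held the loop 1 time. The cysteine codon was number 258 of 367 in Dusp1, 293 of 381 in Dusp6 and 88 of 205 in Dusp22. Of the 8 codons of the loop, Dusp4 shared 6 with Dusp1 and Dusp10 shared 5, while Dusp16 shared 2. The remaining 6 genes shared 3 each. Codons were compared by their bases, so different codons for the same residue count as not shared. The bases of Dusp2, for example, encode the same residues as those of Dusp1. The counts therefore do not rank the genes by likeness of the encoded loop.

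Library totals ran from 13665607 to 19555600 counts, and levels are given as CPM after TMM scaling, that is counts scaled to a common library size. All 14 macrophage markers were tested, and their summed level ran from 10198 to 23288 CPM. Stimulated cells carried their usual markers: of 10 genes known to answer LPS+IFNγ, 9 were higher in KO, and 9 higher and 1 lower in WT, and of 9 tested genes known to answer IL-4, 6 were higher in KO and 7 in WT. Ptprz1 had 0 counts in all KO libraries and a count in only 1 of 6 WT libraries, at 7 counts, so it does not check the genotype labels. Xist was at 0 CPM in KO libraries and ran from 232 to 618 CPM in WT libraries, while the Y-linked gene Ddx3y ran from 86.3 to 111 CPM in KO and was at 0 CPM in WT libraries. Genotype and sex of the donors therefore cannot be told apart. Libraries of a group differed more in KO, with a chi-square per gene of 48.4 to 54.9, than in WT, with 7.10 to 15.6. Markers of stromal and endothelial cells (15 genes, none at 0 in every library) summed to between 414 and 1940 CPM in KO libraries and between 104 and 515 CPM in WT libraries, and library 2 was the higher in every KO and every WT group. KO LPS+IFNγ library 2 also had 220 CPM of S100a8, a calcium-binding protein gene of granulocytes and stimulated macrophages, against 38.0 CPM in KO LPS+IFNγ library 1 and 24.8 and 25.2 CPM in WT LPS+IFNγ libraries. The granulocyte markers Ly6g, S100a9 and Ltf were at 0 CPM in that library.

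**Figure D1:**
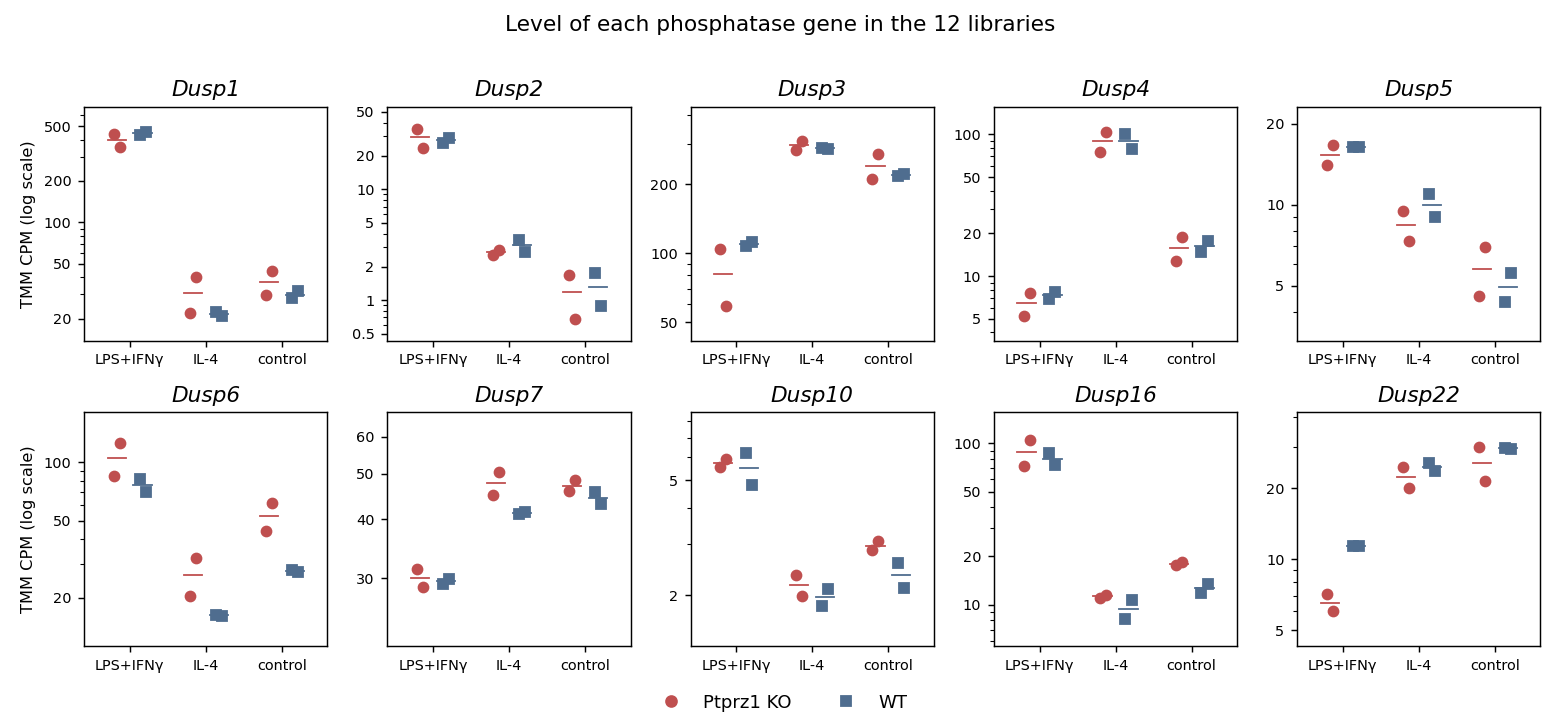
TMM CPM on a log axis for each of the 10 genes, by treatment, with the 2 KO libraries as circles left of the 2 WT libraries as squares and the group mean as a line. Dusp1, Dusp2 and Dusp16 stand far above their other groups after LPS+IFNγ, Dusp4 after IL-4, and Dusp3 and Dusp22 are lowest after LPS+IFNγ.

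Levels can be set between genes only per length, so they were divided by the kilobases (kb) of annotated exon. After LPS+IFNγ, Dusp1 led, at 132 and 107 CPM per kb in KO libraries and 130 and 138 in WT libraries. Dusp6 came next by mean, at 27.1 and 39.9 CPM per kb in KO and 26.1 and 22.4 in WT, where it overlapped with Dusp3, at 23.0 and 23.9 CPM per kb. After IL-4 and in control cells Dusp3 led, at 60.2 and 65.9 CPM per kb in KO IL-4 and 61.4 and 61.2 in WT IL-4 libraries, and at 45.1 and 57.7 in KO control and 46.3 and 47.1 in WT control libraries. Dusp3 therefore headed the order wherever LPS+IFNγ was absent, and its libraries did not overlap with those of the gene ranked second. The second place was taken by Dusp4 after IL-4, at 27.5 and 38.1 CPM per kb in KO and 36.7 and 28.7 in WT. In control cells it went to Dusp6 in KO, at 14.1 and 19.6, and to Dusp7 in WT, at 13.6 and 12.8 CPM per kb, and in KO the libraries of Dusp6 and Dusp7 overlapped. At the foot of the order in control cells stood Dusp2, at 0.851 and 0.341 CPM per kb in KO and 0.874 and 0.443 in WT, which overlapped with Dusp10 in WT but not in KO.

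The make-up of the family's counts, here not divided by exon length, followed the stimulus. Summed over the 10 genes, the level was 797 and 733 CPM in KO and 802 and 810 CPM in WT libraries after LPS+IFNγ, 494 and 579 CPM in KO and 518 and 492 CPM in WT libraries after IL-4, and 400 and 494 CPM in KO and 384 and 391 CPM in WT control libraries. Dusp1 made up between 48.5% and 56.2% of the family's counts after LPS+IFNγ, against between 7.30% and 8.96% in control libraries. Dusp3 made up between 7.98% and 13.8% after LPS+IFNγ, against between 52.7% and 56.5% in control libraries.

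**Figure D2:**
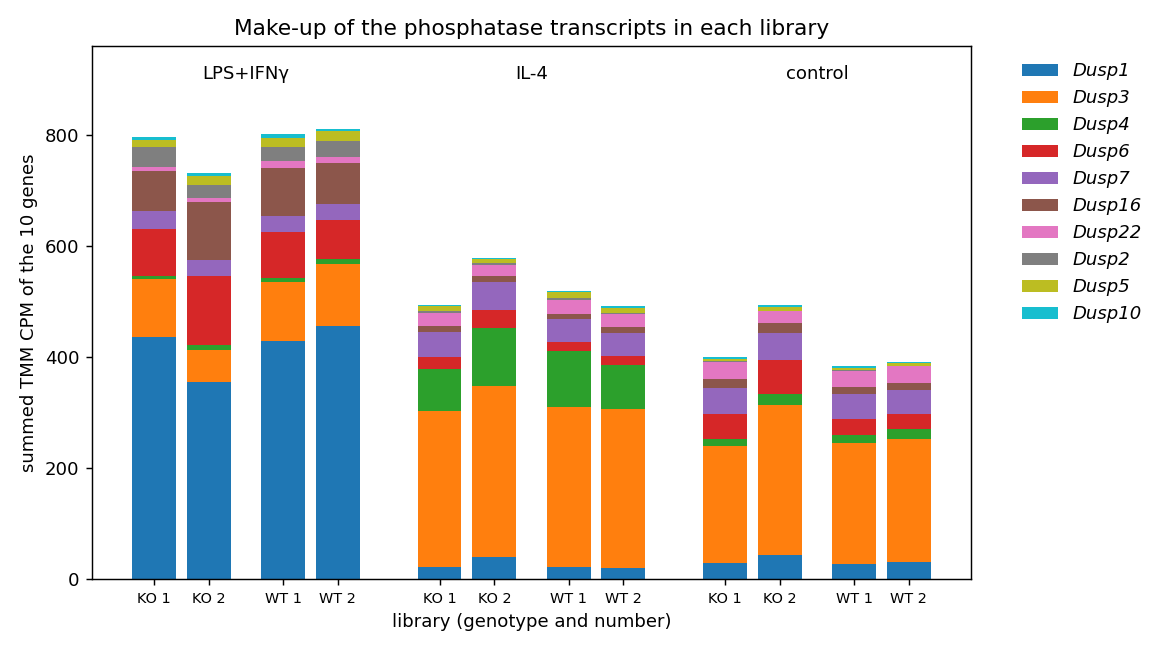
Stacked bars of TMM CPM, not divided by exon length, for the 10 genes in each of the 12 libraries, grouped by treatment with KO left of WT. Dusp1 (blue) fills between 48.5% and 56.2% of the bar after LPS+IFNγ, and Dusp3 (orange) between 52.7% and 56.5% in control libraries.

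LPS+IFNγ against control asked how the family answered the classical inflammatory stimulus, and every member passed the test in each genotype. Dusp1, Dusp2, Dusp5, Dusp6, Dusp10 and Dusp16 rose, and Dusp3, Dusp4, Dusp7 and Dusp22 fell, in KO and in WT alike. The stimulus changed much of the transcriptome. In KO 27.2% of the 13525 genes tested were higher and 26.1% lower, against 6 and 4 of the 10 members. In WT 27.4% were higher and 27% lower, against the same 6 and 4 members. The members' median log2 fold change was 0.97 in KO and 1.35 in WT, beside -0.01 and -0.05 over all genes tested, and their median size of change without regard to sign was 1.49 in KO and 1.42 in WT, beside 0.71 and 0.73. All tests are edgeR quasi-likelihood tests with Benjamini-Hochberg adjustment over all genes tested, called at 0.05. In bulk samples, fewer cells of a type and less RNA per cell cannot be told apart. With upper-quartile scaling, the share of all called genes that were higher was 39.6% in place of 51% in KO and 39.4% in place of 50.4% in WT, and the median of all genes moved by -0.19 and -0.18 on the log2 scale, while all 10 members kept their call and direction in both genotypes.

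**Figure D3:**
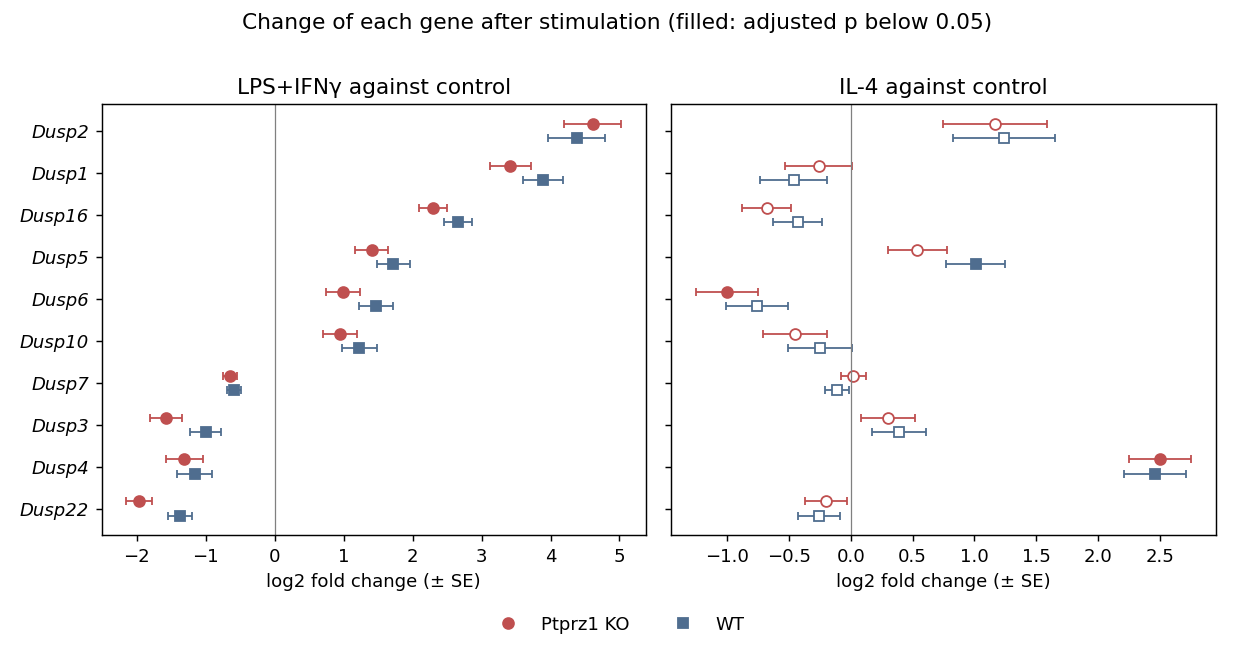
Log2 fold change against control with its standard error for each gene after LPS+IFNγ (left) and IL-4 (right), KO circles above WT squares, filled where the edgeR adjusted p is below 0.05. All 20 points are filled after LPS+IFNγ, and after IL-4 only Dusp4 in both genotypes, Dusp6 in KO and Dusp5 in WT.

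The upstream sequence of 5 members is shown because Dusp2, Dusp1, Dusp16 and Dusp5 had the 4 largest increases in WT after LPS+IFNγ and Dusp22 the largest decrease. Each is the 250 bases before the transcription start in RefSeq (GRCm38.p6), 5′ to 3′ on the gene's strand: Dusp1 chr17:26508473-26508722 (minus strand), Dusp2 chr2:127335909-127336158 (plus), Dusp16 chr6:134792629-134792878 (minus), Dusp5 chr19:53528895-53529144 (plus) and Dusp22 chr13:30659809-30660058 (plus). Capitals mark the cyclic AMP response element TGACGTCA, its core TGACG (a partial site) on either strand, and the CArG box of serum response factor.
Dusp1: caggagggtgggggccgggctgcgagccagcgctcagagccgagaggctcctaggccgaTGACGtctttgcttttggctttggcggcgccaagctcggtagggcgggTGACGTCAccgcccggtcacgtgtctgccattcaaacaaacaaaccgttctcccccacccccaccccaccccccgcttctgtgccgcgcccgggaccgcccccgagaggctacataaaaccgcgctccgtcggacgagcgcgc
Dusp2: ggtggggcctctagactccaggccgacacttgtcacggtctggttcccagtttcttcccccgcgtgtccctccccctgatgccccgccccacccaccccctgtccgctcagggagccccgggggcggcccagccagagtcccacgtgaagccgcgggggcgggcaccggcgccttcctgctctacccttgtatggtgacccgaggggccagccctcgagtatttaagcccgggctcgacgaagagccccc
Dusp16: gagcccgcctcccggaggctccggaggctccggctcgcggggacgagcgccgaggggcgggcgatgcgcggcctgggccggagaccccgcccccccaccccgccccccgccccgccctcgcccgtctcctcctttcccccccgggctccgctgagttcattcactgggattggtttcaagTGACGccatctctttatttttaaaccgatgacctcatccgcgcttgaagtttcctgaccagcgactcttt
Dusp5: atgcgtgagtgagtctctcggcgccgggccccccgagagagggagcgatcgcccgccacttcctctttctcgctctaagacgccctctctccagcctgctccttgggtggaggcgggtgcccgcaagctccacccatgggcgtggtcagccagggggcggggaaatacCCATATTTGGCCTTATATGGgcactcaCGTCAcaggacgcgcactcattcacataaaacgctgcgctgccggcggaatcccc
Dusp22: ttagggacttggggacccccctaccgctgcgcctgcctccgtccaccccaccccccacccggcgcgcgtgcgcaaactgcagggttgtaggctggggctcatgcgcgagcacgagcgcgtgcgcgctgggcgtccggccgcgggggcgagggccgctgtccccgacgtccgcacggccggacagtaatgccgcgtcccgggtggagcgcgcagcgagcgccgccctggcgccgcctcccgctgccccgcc
Of 9 members with a window, Dusp4 having no entry, Dusp1, Dusp5 and Dusp16 held the partial site, which 17.8% of 32841 windows of the same length held. The full element was in Dusp1 alone, 143 to 136 bases before the start, and in 1.55% of windows; it holds 2 of the 3 partial sites of Dusp1, 1 on each strand. Only Dusp5 held a CArG box, and it held 2 side by side, between 82 and 63 bases before the start, a motif in 1.47% of windows. The AP-1 site TGANTCA, found in 6.75% of windows, was in none of the 9, nor were the STAT6 site (5.85%) and the interferon-stimulated response element (2.98%). A loose NF-κB pattern, GGG and CC 5 bases apart, was in 8 of 9 members and in 45.8% of windows. A match describes letters only and is not evidence of binding.

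Among the inducible nuclear phosphatases, Dusp1 (GRCm38 chr17:26505590-26562128), which dephosphorylates p38 and JNK, had 437 and 355 CPM in KO LPS+IFNγ libraries, against 29.8 and 44.2 CPM in KO control libraries. In WT it had 429 and 456 CPM after LPS+IFNγ, against 28.0 and 31.6 CPM in control libraries. The groups stood well apart in both genotypes. The log2 fold change was 3.42 ± 0.29 (SE) in KO, with an edgeR adjusted p of 1.03e-05, and 3.89 ± 0.29 in WT, with 5.18e-06. The annotated span of Dusp1 overlaps Ergic1 on the opposite strand, which averaged 81.2 CPM in KO LPS+IFNγ libraries, against 125 CPM in KO control, and 56.9 CPM in WT LPS+IFNγ libraries, against 92.8 CPM in WT control. Whether strand was used in counting is not given in the sources used here.

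Dusp2 (GRCm38 chr2:127336159-127338376), an enzyme first known from activated T cells, had the largest fold change of the family. It had 35.1 and 23.8 CPM in KO LPS+IFNγ libraries, against 1.70 and 0.682 CPM in KO control libraries. In WT it had 26.2 and 29.1 CPM after LPS+IFNγ, against 1.75 and 0.887 CPM in control. Control values rest on few reads, 37 and 14 counts in KO and 36 and 18 counts in WT. This gave a log2 fold change of 4.61 ± 0.41 in KO, or 24.5-fold, and 4.38 ± 0.41 in WT, or 20.9-fold, with edgeR adjusted p of 1.56e-05 and 1.87e-05.

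Dusp5 (GRCm38 chr19:53529109-53542431), a nuclear enzyme specific for ERK, had 14.0 and 16.6 CPM in KO LPS+IFNγ libraries, against 4.56 and 6.97 CPM in KO control. In WT it had 16.3 and 16.4 CPM after LPS+IFNγ, against 4.33 and 5.57 CPM in control. The 4 stimulated libraries lay above the 4 control libraries. Its log2 fold change was 1.41 ± 0.24 in KO and 1.72 ± 0.24 in WT, with edgeR adjusted p of 0.000931 and 0.000261.

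Dusp4 (GRCm38 chr8:34807297-34819894), the other inducible nuclear enzyme, went the opposite way. It had 5.27 and 7.65 CPM in KO LPS+IFNγ libraries, against 12.8 and 19.0 CPM in KO control, and 6.88 and 7.72 CPM in WT LPS+IFNγ libraries, against 14.9 and 17.6 CPM in WT control. The stimulated libraries were below all control libraries. Dusp4 changed by a log2 fold change of -1.31 ± 0.27 in KO and -1.16 ± 0.26 in WT, with edgeR adjusted p of 0.00264 and 0.00447.

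The cytoplasmic ERK phosphatases parted. Dusp6 (GRCm38 chr10:99263231-99267489), an ERK feedback inhibitor, had 85.0 and 125 CPM in KO LPS+IFNγ libraries, against 44.2 and 61.4 CPM in KO control, and 81.6 and 70.3 CPM in WT LPS+IFNγ libraries, against 27.9 and 27.1 CPM in WT control. Stimulated and control libraries did not overlap within a genotype, though KO library 2 was the higher under both conditions. The log2 fold change was 0.99 ± 0.25 in KO and 1.47 ± 0.25 in WT, with edgeR adjusted p of 0.00735 and 0.000842. In KO the call was lost without control library 1 (adjusted p = 0.0548) and without LPS+IFNγ library 2 (adjusted p = 0.0596). Dusp7 (GRCm38 chr9:106368632-106375724), the other cytoplasmic enzyme that prefers ERK, had 31.4 and 28.7 CPM in KO LPS+IFNγ libraries, against 46.0 and 48.4 CPM in KO control, and 29.2 and 29.9 CPM in WT LPS+IFNγ libraries, against 45.8 and 43.1 CPM in WT control. This was the smallest change of the family, a log2 fold change of -0.65 ± 0.10 in KO and -0.59 ± 0.10 in WT (edgeR adjusted p of 0.000487 and 0.000848).

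Both phosphatases that prefer JNK and p38 rose. Dusp16 (GRCm38 chr6:134715468-134792625) had 72.6 and 105 CPM in KO LPS+IFNγ libraries, against 17.5 and 18.4 CPM in KO control, and 87.5 and 73.3 CPM in WT LPS+IFNγ libraries, against 11.9 and 13.5 CPM in WT control. Stimulated libraries lay far above control libraries, at a log2 fold change of 2.30 ± 0.20 in KO and 2.66 ± 0.20 in WT (edgeR adjusted p of 1.13e-05 and 5.06e-06). Dusp10 (GRCm38 chr1:184013302-184075636) was a low gene, at 5.54 and 5.90 CPM in KO LPS+IFNγ libraries, against 2.86 and 3.07 CPM in KO control, and at 6.20 and 4.81 CPM in WT LPS+IFNγ libraries, against 2.58 and 2.12 CPM in WT control. The groups did not overlap. For Dusp10 the log2 fold change was 0.95 ± 0.25 in KO and 1.23 ± 0.25 in WT, with edgeR adjusted p of 0.0107 and 0.00271. In KO the call was lost without control library 1 (adjusted p = 0.0595) and with only the 4 libraries of the comparison in the fit (adjusted p = 0.0586).

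Both small phosphatases without a docking domain fell. Dusp3 (GRCm38 chr11:101971143-101987013), which acts on ERK and JNK, had 104 and 58.5 CPM in KO LPS+IFNγ libraries, against 211 and 270 CPM in KO control, and 107 and 112 CPM in WT LPS+IFNγ libraries, against 217 and 221 CPM in WT control. KO LPS+IFNγ library 2 stood low, while library 1 was close to WT. The log2 fold change was -1.57 ± 0.23 in KO and -1.0 ± 0.22 in WT, with edgeR adjusted p of 0.000328 and 0.00429. Dusp22 (GRCm38 chr13:30659999-30711231), known for acting in JNK and T cell receptor signalling, had 7.09 and 6.00 CPM in KO LPS+IFNγ libraries, against 29.8 and 21.5 CPM in KO control, and 11.4 and 11.4 CPM in WT LPS+IFNγ libraries, against 29.7 and 29.3 CPM in WT control. Its log2 fold change was -1.96 ± 0.19 in KO, or 3.90-fold lower, and -1.37 ± 0.18 in WT, or 2.58-fold lower, with edgeR adjusted p of 2.24e-05 and 0.000154.

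IL-4 against control asked how the family answered the stimulus of alternative activation. By edgeR over all 12 libraries with the filter on low counts, Dusp4 was the gene called in both genotypes. It had 75.3 and 104 CPM in KO IL-4 libraries, against 12.8 and 19.0 CPM in KO control, and 101 and 78.6 CPM in WT IL-4 libraries, against 14.9 and 17.6 CPM in WT control. The lowest IL-4 library was far above the highest control library. Its log2 fold change was 2.50 ± 0.25 in KO and 2.46 ± 0.25 in WT, with edgeR adjusted p of 0.00104 and 0.000885, and Dusp4 thus rose with IL-4 and fell with LPS+IFNγ. With only the 4 KO libraries in the fit, which called 8 of all genes, its adjusted p was 0.058. In KO, 1 member was higher (3.52% of all genes tested were) and 1 was lower (3.34% were). In WT, 2 were higher (4.92% of all genes were) and 0 were lower (4.12% were). In each genotype 4 members were below 0.05 before adjustment, and the share of all genes below it was not computed. By DESeq2, Dusp6 was lower in WT (adjusted p = 0.0375).

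The other calls after IL-4 were near the threshold. Dusp5 had 9.45 and 7.29 CPM in KO IL-4 libraries, against 4.56 and 6.97 CPM in KO control, and 10.9 and 8.99 CPM in WT IL-4 libraries, against 4.33 and 5.57 CPM in WT control. Its log2 fold change was 0.54 ± 0.24 in KO (edgeR adjusted p = 0.207) and 1.01 ± 0.24 in WT (edgeR adjusted p = 0.0338), so only the WT call passed, and it was lost without any of the 6 WT libraries (adjusted p from 0.0634 to 0.254). Dusp6 had 20.4 and 32.2 CPM in KO IL-4 libraries, against 44.2 and 61.4 CPM in KO control, and 16.3 and 16.2 CPM in WT IL-4 libraries, against 27.9 and 27.1 CPM in WT control. All IL-4 libraries lay below the control libraries of their genotype. The log2 fold change was -1.0 ± 0.25 in KO (edgeR adjusted p = 0.044) and -0.76 ± 0.25 in WT (edgeR adjusted p = 0.0934). Without the filter on low counts, the WT decrease passed (edgeR adjusted p = 0.00817). With only the libraries of the comparison in the fit, the edgeR adjusted p was 0.00299 in WT and 0.21 in KO. These last fits called 3475 of all genes in WT and 8 in KO. As edgeR adjusted p, the KO call stood at 0.0599 without KO control library 1, at 0.136 without KO control library 2, at 0.121 without KO IL-4 library 1 and between 0.0685 and 0.078 without each of the 6 WT libraries.

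The remaining 7 members did not pass after IL-4 in either genotype by edgeR over all 12 libraries with the filter on low counts. DESeq2 called Dusp2 higher in WT (adjusted p = 0.0314) and Dusp16 lower in KO (adjusted p = 0.0241). Without the filter, edgeR called Dusp2 higher in WT (adjusted p = 0.0126) and KO (0.0233), and Dusp16 lower in KO (0.0147). With only the WT libraries of the comparison, which called 3475 of all genes, edgeR called Dusp1 lower (adjusted p = 0.023) and Dusp3 higher (0.00422). Dusp2 had 2.57 and 2.84 CPM in KO IL-4 libraries, against 1.70 and 0.682 CPM in KO control, and 3.52 and 2.75 CPM in WT IL-4 libraries, against 1.75 and 0.887 CPM in WT control, at edgeR adjusted p of 0.126 and 0.0944. Dusp16 had 11.0 and 11.5 CPM in KO IL-4 libraries, against 17.5 and 18.4 CPM in KO control, and 8.15 and 10.7 CPM in WT IL-4 libraries, against 11.9 and 13.5 CPM in WT control, at edgeR adjusted p of 0.0708 and 0.214. For Dusp1, Dusp3, Dusp7, Dusp10 and Dusp22 the log2 fold changes lay between -0.46 and 0.39. Dusp3, the most abundant member per kb, had 282 and 308 CPM in KO IL-4 libraries and 288 and 286 CPM in WT IL-4 libraries, against 211 and 270 CPM in KO control and 217 and 221 CPM in WT control.

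Setting the stimuli against each other, LPS+IFNγ against IL-4 separated all 10 members in both genotypes, with the same 6 higher and the same 4 lower. Of all genes tested, 26.7% were higher and 28.1% lower in KO, and 28.1% were higher and 28.1% lower in WT. The widest gap was that of Dusp1 in WT, with 429 and 456 CPM in LPS+IFNγ libraries, against 22.3 and 20.9 CPM in IL-4 libraries, a log2 difference of 4.36 ± 0.30. Dusp4 gave the widest gap the other way, at -3.81 ± 0.28 in KO and -3.62 ± 0.27 in WT, or 14.1-fold and 12.3-fold lower after LPS+IFNγ. The smallest increase was that of Dusp5, which had risen with each stimulus in WT, at 0.87 ± 0.24 in KO (edgeR adjusted p = 0.0117) and 0.71 ± 0.24 in WT (edgeR adjusted p = 0.0265). The WT call of Dusp5 was lost with upper-quartile scaling (adjusted p = 0.0672), without WT LPS+IFNγ library 1 or 2 (adjusted p = 0.0894 and 0.0898) and without WT IL-4 library 2 (adjusted p = 0.152), and the KO call without KO LPS+IFNγ library 2 (adjusted p = 0.0611) or KO IL-4 library 2 (adjusted p = 0.0807).

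KO against WT asked whether the family differed between the genotypes, which cannot be told apart from donor sex. No member passed the test. The counts were 0 of 10 after LPS+IFNγ (0.0591% of all genes passed), 0 after IL-4 (0.0665%), 0 in control cells (0.0739%) and 0 for the mean of the 3 treatments (0.17%). At an unadjusted p below 0.05 stood 1 member after LPS+IFNγ, 1 after IL-4, 2 in control and 3 for the mean. The share of all genes below that unadjusted level was not computed, so these counts have no background beside them. DESeq2 called 0 in each treatment and 1, Dusp6, for the mean.

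Dusp6 had the largest difference for the mean. It had 85.0 and 125 CPM in KO LPS+IFNγ libraries, against 81.6 and 70.3 CPM in WT LPS+IFNγ libraries; 20.4 and 32.2 CPM in KO IL-4 libraries, against 16.3 and 16.2 CPM in WT IL-4 libraries; and 44.2 and 61.4 CPM in KO control, against 27.9 and 27.1 CPM in WT control. The 2 KO libraries lay above the 2 WT libraries in each of the 3 treatments. The log2 difference was 0.47 ± 0.24 after LPS+IFNγ, 0.70 ± 0.25 after IL-4 and 0.94 ± 0.25 in control, and 0.70 ± 0.14 for the mean, where the unadjusted p was 0.000747 and the edgeR adjusted p 0.23. DESeq2 gave the mean an adjusted p of 0.00188, and edgeR without the filter on low counts 0.000124. Of 20 alternative fits, 15 did not call the mean difference of Dusp6. Across the 20 it ran from 0.38 to 0.96 on the log2 scale. The summed level of 15 stromal and endothelial markers was also higher on average in KO, with overlap in control: it was 414 and 1093 CPM in KO LPS+IFNγ libraries, against 107 and 302 CPM in WT; 593 and 1940 CPM in KO IL-4 libraries, against 175 and 471 CPM in WT; and 506 and 1462 CPM in KO control libraries, against 104 and 515 CPM in WT. None of the 13 markers tested passed between KO and WT in any treatment or for the mean (edgeR), and their median log2 difference for the mean was 1.32. Collagen genes made up much of the sum: Col1a1 had 151 and 416 CPM in KO control, against 22.0 and 123 CPM in WT control. Of the endothelial markers, Pecam1 and Kdr were not higher in KO after LPS+IFNγ. There Pecam1 had 19.4 and 3.78 CPM in KO, against 21.8 and 17.9 CPM in WT. Kdr had 5.20 and 4.36 CPM in KO, against 9.40 and 12.1 CPM in WT. Within each KO group the library with the higher marker sum had more Dusp6. No WT group did the same. Between the WT control libraries the marker sum was 104 and 515 CPM and Dusp6 27.9 and 27.1 CPM. Between the WT LPS+IFNγ libraries the sum was 107 and 302 CPM and Dusp6 81.6 and 70.3 CPM. Between the WT IL-4 libraries the sum was 175 and 471 CPM and Dusp6 16.3 and 16.2 CPM. The library with the higher sum was library 2 in every group, so marker sum and library number give the same split. The part of these cells, of sex and of strain background in the Dusp6 difference was not tested.

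**Figure D4:**
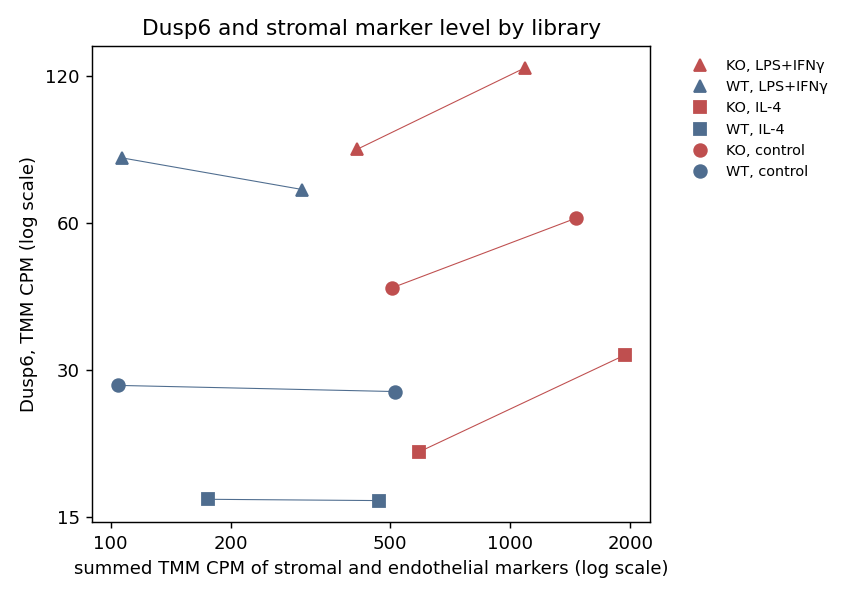
Dusp6 level against the summed level of 15 stromal and endothelial markers (both TMM CPM on log axes) in the 12 libraries, KO in red and WT in blue, with lines joining the 2 libraries of a group. In KO groups the library with more marker signal has more Dusp6 (44.2 and 61.4 CPM in control), while in WT groups it does not (27.9 and 27.1 CPM in control).

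Dusp22 and Dusp16 were the others under an unadjusted p of 0.05. For the mean of the treatments, the log2 difference of Dusp22 was -0.38 ± 0.10 (edgeR unadjusted p = 0.0044, adjusted p = 0.378). That of Dusp16 was 0.30 ± 0.11 (edgeR unadjusted p = 0.0238, adjusted p = 0.409). Dusp22 had 7.09 and 6.00 CPM in KO LPS+IFNγ libraries, against 11.4 and 11.4 CPM in WT LPS+IFNγ libraries, which do not overlap, at a log2 difference of -0.80 ± 0.19 (unadjusted p = 0.0021, edgeR adjusted p = 0.557). In control it had 29.8 and 21.5 CPM in KO, against 29.7 and 29.3 CPM in WT, which overlap, and the log2 difference was -0.20 ± 0.17. The interaction of genotype with LPS+IFNγ for Dusp22 was -0.59 ± 0.25 (unadjusted p = 0.0433, edgeR adjusted p = 0.991). Dusp16 had 17.5 and 18.4 CPM in KO control, against 11.9 and 13.5 CPM in WT control, at 0.50 ± 0.19 (unadjusted p = 0.028, edgeR adjusted p = 0.666). Its KO and WT libraries overlapped after LPS+IFNγ. After IL-4 they did not, at 11.0 and 11.5 CPM in KO, against 8.15 and 10.7 CPM in WT. The log2 difference there was 0.26 ± 0.20. Dusp16 lies on chromosome 6, as does Ptprz1, 112 Mb away.

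For Dusp3 after LPS+IFNγ the difference rested on 1 library. It had 104 and 58.5 CPM in KO, against 107 and 112 CPM in WT, at a log2 difference of -0.43 ± 0.22 (edgeR adjusted p = 0.632). Leaving out KO LPS+IFNγ library 1 made this -0.91 with an edgeR adjusted p of 0.022, and library 2 then stood alone for its group. Across the alternatives tried, the difference ran from -0.91 to -0.08. For Dusp1, Dusp2, Dusp4, Dusp5, Dusp7 and Dusp10 the log2 differences for the mean of the treatments lay between -0.08 and 0.22, with standard errors from 0.06 to 0.23.

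Whether the response to a stimulus differed by genotype was tested as an interaction. No member passed for LPS+IFNγ or for IL-4 (edgeR), and 0% of all genes did in either test. DESeq2 also called 0 members. At an unadjusted p below 0.05 stood 1 member for LPS+IFNγ and 0 for IL-4, without a share of all genes computed at that level. For Dusp4 and IL-4 the interaction was 0.04 ± 0.34, and for Dusp1 and LPS+IFNγ -0.47 ± 0.37. A missed threshold does not show that KO and WT cells answer alike.

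The rest of the MAP kinase pathway was read from 7 further gene lists, whose counts after LPS+IFNγ stand beside 27.2% higher and 26.1% lower over all genes tested in KO, and 27.4% and 27% in WT. After LPS+IFNγ, MAP2 and MAP3 kinases, the activators upstream of the MAP kinases, had 12 higher and 2 lower of 25 tested in KO and likewise 12 and 2 in WT. Map3k8, which carries the LPS signal to ERK, had 67.4 and 83.7 CPM in KO LPS+IFNγ libraries, against 23.4 and 11.0 CPM in KO control, and 75.5 and 78.9 CPM in WT LPS+IFNγ libraries, against 21.8 and 21.4 CPM in WT control. Map2k1, the ERK kinase, had 475 and 491 CPM in KO, against 110 and 117 CPM in control, and 463 and 476 CPM in WT, against 113 and 114 CPM in control, a log2 fold change of 2.09 ± 0.11 in KO and 2.05 ± 0.11 in WT (edgeR adjusted p of 8.93e-07 and 8.96e-07). Of 9 MAP kinases tested, 3 were higher and 1 lower in KO, and 2 higher and 1 lower in WT, and the log2 fold change of Mapk3, which encodes an ERK, was -0.48 ± 0.12 in KO and -0.48 ± 0.12 in WT. Of 9 MAPK-activated kinases tested, 2 were higher and 3 lower in KO and 2 higher and 4 lower in WT, with Mapkapk2, the p38 effector, higher (log2 fold change 1.42 ± 0.16 in KO and 1.20 ± 0.16 in WT) and Rps6ka2 lower (-2.67 ± 0.20 in KO and -2.71 ± 0.20 in WT).

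Other brakes on the pathway were called in both directions after LPS+IFNγ, as were genes at large. Of all genes tested, 27.2% were higher and 26.1% lower in KO, and 27.4% and 27% in WT. Of 11 Sprouty, Spred and Ras-inhibiting genes tested, 4 were higher and 3 lower in each genotype. All 3 Spred genes were higher: Spred1 had 388 and 423 CPM in KO LPS+IFNγ libraries, against 196 and 219 CPM in KO control, and 390 and 366 CPM in WT LPS+IFNγ libraries, against 167 and 169 CPM in WT control. Of 14 other dual-specificity and related phosphatases tested, 1 was higher and 3 lower in KO and 2 higher and 4 lower in WT. Dusp28 was the higher gene in both, with 28.8 and 28.7 CPM in KO LPS+IFNγ libraries, against 3.69 and 3.75 CPM in KO control, and 24.7 and 28.9 CPM in WT LPS+IFNγ libraries, against 3.65 and 4.04 CPM in WT control. Ptpn7, a tyrosine phosphatase of ERK and p38 in blood cells, was lower (log2 fold change -0.71 ± 0.21 in KO and -1.20 ± 0.21 in WT, edgeR adjusted p of 0.0181 and 0.00111). Of 8 proteins that bind AU-rich elements in mRNA, 1 was higher and 4 lower in each genotype, the higher being Zfp36, which encodes tristetraprolin, an mRNA-destabilizing target of the p38 pathway (log2 fold change 1.87 ± 0.13 in KO and 1.90 ± 0.13 in WT).

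Among genes known to be transcribed on ERK signalling, more were higher than lower after each stimulus. After LPS+IFNγ, 10 of 18 tested were higher and 5 lower in KO, and 8 higher and 3 lower in WT. Egr2, an early growth response factor, had 1.22 and 2.52 CPM in KO LPS+IFNγ libraries, against 21.9 and 42.1 CPM in KO control, and 0.545 and 1.08 CPM in WT LPS+IFNγ libraries, against 32.7 and 34.3 CPM in WT control. After IL-4, 5 of the 18 were higher and 1 lower in KO and 4 higher and 1 lower in WT, beside 3.52% and 3.34% of all genes in KO and 4.92% and 4.12% in WT. Egr2 then had 203 and 184 CPM in KO and 190 and 198 CPM in WT libraries. Dusp4 and Egr2 were thus higher than control after IL-4 and lower after LPS+IFNγ, in both genotypes. Myc, a growth regulator, was lower after LPS+IFNγ in both genotypes, at a log2 fold change of -3.19 ± 0.41 in KO and -2.98 ± 0.43 in WT, and Hbegf, an EGF receptor ligand, was higher after IL-4, at 2.85 ± 0.51 in KO and 3.03 ± 0.51 in WT. Of the other 6 lists, none had, after IL-4, more than 2 genes higher or 3 lower.

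**Figure D5:**
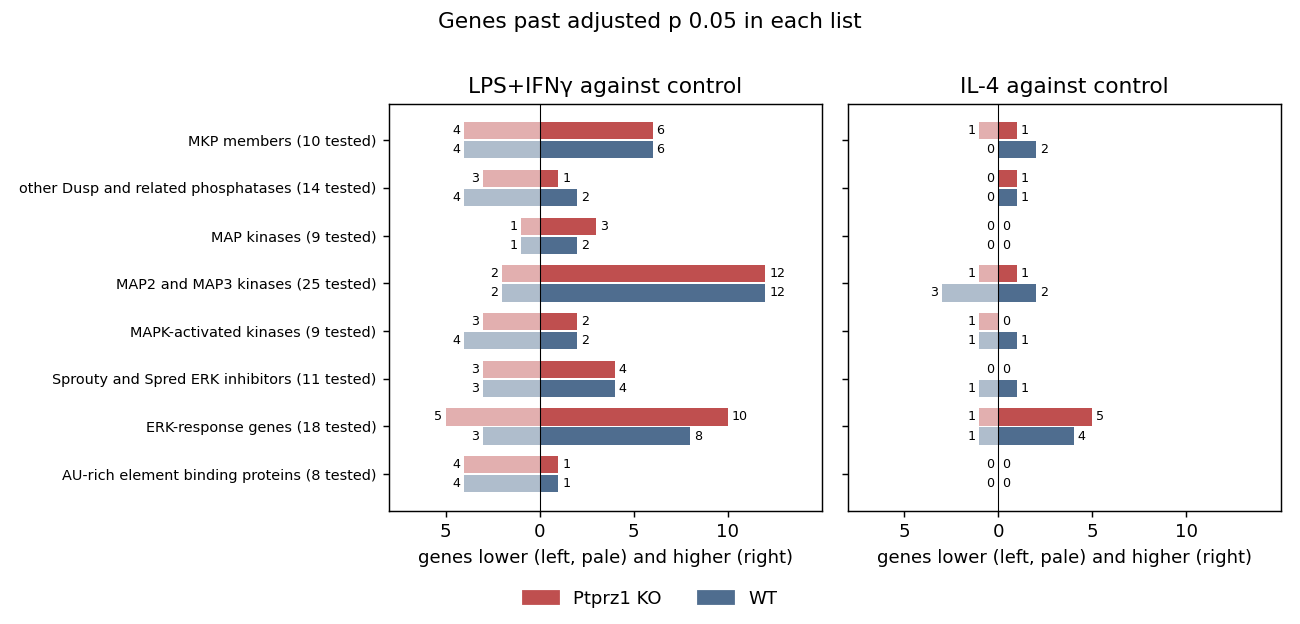
Number of genes higher (right, full colour) and lower (left, pale) than control at an edgeR adjusted p below 0.05 in the family (10 genes) and 7 further lists, KO bars above WT bars. After LPS+IFNγ MAP2 and MAP3 kinases have 12 higher and 2 lower of 25 in each genotype, and after IL-4 the ERK-response genes have 5 higher in KO and 4 in WT.

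For the 4 members with the largest change in WT after LPS+IFNγ, the genes most like them in level were found over the 12 libraries (Pearson's r of log2 CPM, a description over libraries that share treatments). Dusp2 was most like Anks1 (0.991), Srgn (0.988) and Csrnp1 (0.987). Dusp1 was most like Fth1 (0.996), Bnip2 (0.994) and Cd1d1 (0.994), and Dusp16 was most like Msr1 (0.996), 9530068E07Rik (0.995) and Tm9sf4 (0.994). Dusp5 had weaker matches, Lias (0.981), B4galt5 (0.972) and Pomp (0.971).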

How the data were processed

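The authors deposited 1 table of estimated counts per gene, all whole numbers, for 12 libraries, and all its sample columns were assigned by name. Libraries were made with a directional kit (NEBNext Ultra II), per the labels' protocols. Per the submitters' processing notes, FastQC 0.11.9, Salmon 1.10.2, R 4.4.1 and DESeq2 1.45.3 were used with GRCm39, with no role given for each. For strand use, annotation and trimming, nothing is given in the sources used here. Symbols and GRCm38 positions came from GENCODE M21 (51425 of 55891 identifiers, 92%) and were not converted between builds. Promoter windows came from RefSeq.

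From the deposited counts, edgeR 4.0.16 in R 4.3.3 kept 13525 genes (filterByExpr, minimum count 10), scaled by TMM and fitted 1 coefficient per group over all 12 libraries by quasi-likelihood. That left 6 residual degrees of freedom, and Benjamini-Hochberg adjustment ran over all genes tested. In the shallowest library 3 counts were 0.290 CPM. That floor covers counting error only, while standard errors take in the spread between libraries. Steps were tested on simulated counts. Alternatives were DESeq2 1.42.0, its size factors, upper-quartile factors, no filter, only the libraries of a comparison, a replicate block and leaving out each library. Unscaled library sizes and fits without the 3 KO libraries of a number were added after seeing the data. The members and gene lists were chosen with earlier results of these data known. All members are named, and from each further list up to 3 genes per comparison and direction with the largest change past the threshold, from which the text gives examples.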

Additional observations from a re-analysis of the deposited data

How the results depend on the processing

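After LPS+IFNγ against control, between 8 and 10 members passed under every alternative run in KO and all 10 in WT, and for LPS+IFNγ against IL-4 between 9 and 10 did in each genotype. Without a scaling factor (added after seeing the data), the KO calls of Dusp6 and Dusp10 after LPS+IFNγ were lost (adjusted p of 0.0961 and 0.157), and the median of all genes moved by -0.50. Of the called higher genes the share was then 24.8% in KO and 24.9% in WT, and for LPS+IFNγ against IL-4 25.3% in place of 48.7% in KO and 28.1% in place of 49.9% in WT.

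For IL-4 against control, 2 members passed in KO and 2 in WT. In KO 4 passed with no filter on low counts and 0 with only the libraries of the comparison. The KO count moved both up and down on leaving out single libraries. In WT 4 passed with DESeq2, 4 with no filter and 5 with only the libraries of the comparison. The WT count also moved both up and down on leaving out single libraries. Without the KO libraries of a number, more members passed in both genotypes, but so did more of all genes tested.

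For KO against WT, 0 members passed. In control 1 (Dusp6) passed with no filter, 1 without the KO libraries numbered 2 and 3 without those numbered 1. After LPS+IFNγ 0 to 1 passed on leaving out single libraries and 3 without the KO libraries numbered 1. After IL-4 2 passed without those numbered 1. For the mean 1 (Dusp6) passed with DESeq2, 1 with no filter, 0 to 1 on leaving out single libraries and 5 without the KO libraries numbered 1, and for the interaction with LPS+IFNγ 2 did without those numbered 1. Fits without the KO libraries of a number leave 1 KO library per group, so the spread comes from WT. The cause of these changes was not tested.

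With a replicate block 1 member (Dusp6) passed for the mean, at a log2 difference of 0.68 and an adjusted p of 0.0362, and no other count of members moved by over 1.5 times. Same-numbered libraries deviated together, at r above 0.1, in 14 of 15 pairs of groups, but with 2 numbers the pairing is not established.

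Counts over all genes moved by over 1.5 times too. For the mean 23 passed, against 96 with DESeq2, 312 with no filter, 173 with the block and 2797 without the KO libraries numbered 1. For KO against WT after LPS+IFNγ, after IL-4 and in control, 8, 9 and 10 passed, against 35, 18 and 66 with DESeq2 and 81, 33 and 107 with no filter. For IL-4 against control 928 passed in KO and 1222 in WT, against 1640 and 1840 with DESeq2 and 8 and 3475 with only the libraries of the comparison. On leaving out single libraries, IL-4 against control called 303 (without KO control library 1) to 1218 in KO and 175 (without WT control library 1) to 1637 in WT; in KO the count fell by over 1.5 times without KO control library 1, KO IL-4 library 2 and each WT control and LPS+IFNγ library, and in WT without each of the 6 WT libraries. KO against WT called 7 to 504 after LPS+IFNγ, 8 to 20 after IL-4, 8 to 49 in control and 15 to 130 for the mean. The highest counts came without KO LPS+IFNγ library 1 (after LPS+IFNγ and for the mean), KO IL-4 library 1 and KO control library 2. The interactions called 0 to 27 for LPS+IFNγ and 0 to 12 for IL-4. Of 2510 single-gene values recomputed, 34 lost a call, 48 gained a call and 0 reversed a called direction.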

Other observations

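A few genes of the same pathway answered IL-4 beside Dusp4; the genes named here were picked from the pathway lists after their values were seen. Dusp23, a small atypical dual-specificity phosphatase, had 12.5 and 10.3 CPM in KO IL-4 libraries, against 5.94 and 5.75 CPM in KO control, and 13.7 and 12.7 CPM in WT IL-4 libraries, against 4.96 and 5.22 CPM in WT control. The groups did not overlap, at a log2 fold change of 0.96 ± 0.21 in KO and 1.38 ± 0.22 in WT (edgeR adjusted p of 0.0301 and 0.00619). Rps6ka5, a nuclear kinase activated by ERK and p38, had 9.02 and 9.90 CPM in KO IL-4 libraries, against 21.4 and 17.1 CPM in KO control, and 10.2 and 9.62 CPM in WT IL-4 libraries, against 20.6 and 20.1 CPM in WT control. Its log2 fold change after IL-4 was -1.03 ± 0.16 in KO and -1.04 ± 0.16 in WT (edgeR adjusted p of 0.00794 and 0.00639). It fell after LPS+IFNγ as well, by 1.35 on the log2 scale in KO and by 1.34 in WT.

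Map3k14, which activates the alternative NF-κB pathway, moved in opposite directions in WT. It had 44.6 and 45.6 CPM after LPS+IFNγ and 8.31 and 7.66 CPM after IL-4, against 19.3 and 15.3 CPM in control, and both changes passed (edgeR adjusted p of 0.00039 and 0.0151). In KO it had 47.1 and 42.1 CPM after LPS+IFNγ and 10.8 and 8.57 CPM after IL-4, against 13.5 and 8.77 CPM in control, and its IL-4 and control libraries overlapped. Ier3, an immediate early gene, had 59.5 and 104 CPM in KO LPS+IFNγ libraries, against 10.0 and 5.02 CPM in KO control, and 58.6 and 58.3 CPM in WT LPS+IFNγ libraries, against 8.31 and 10.3 CPM in WT control. Its log2 fold change was 3.43 ± 0.34 in KO and 2.65 ± 0.33 in WT (edgeR adjusted p of 2.75e-05 and 0.000113).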
